A study of Mus musculus with 6 samples.

Results

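Transcripts of the ETS family were compared between resting splenic NK cells of WT and Runx3-/- mice, probe set by probe set. The family was represented by 10 genes, Ets1, Ets2, Elf1, Elf4, Etv3, Etv6, Fli1, Gabpa, Gabpb1 and Elk3, and every probe set of the array annotated to 1 of these symbols alone was taken, 27 of the 45101 on the array. The array names 18193 genes in this way. The 6 arrays came from 3 WT and 3 Runx3-/- mice of the ICR strain, aged 6 weeks. Both groups went through the same steps: depletion of non-NK cells with a negative selection kit, a sort for the surface antigen DX5, and no stimulation. The series design gives 1 mouse per sample, whereas the sex label names both sexes for every sample. Runx3 was missing from the whole animal and not from NK cells alone as far as the genotype label tells, so changes in other cells of the Runx3-/- mice cannot be told apart from changes that arise within the NK cells.

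ETS factors share a winged helix-turn-helix domain that binds DNA around a GGAA core, and they often bind next to RUNX factors, with which Ets1 can cooperate on composite sites. Ets1 is needed for NK cell development, Elf4 (also called MEF) activates the perforin gene in NK cells, and Fli1 acts in blood stem cells, megakaryocytes and lymphocytes. Etv6 and Etv3 act mainly as repressors, and Elk3 is a ternary complex factor that binds DNA together with Srf. Gabpa holds an ETS domain, while its partner Gabpb1 has none and supplies ankyrin repeats and the activating part of the GABP complex. The study treats ETS factors as candidate partners of Runx3 in cytotoxic lymphocytes. It already reported Elf1 as repressed by Runx3 in resting NK cells, and Ets1, Ets2, Etv3 and Etv6 as repressed in IL-2-activated NK cells. Fli1, Gabpa and Gabpb1 were reported as enhanced by Runx3 in IL-2-activated NK cells. The comparison here asks, probe set by probe set, whether transcripts of the ETS genes themselves differ in resting NK cells when Runx3 is absent.

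Promoter sequences are shown for Elf1, Gabpb1 and Gabpa, the genes whose pairs of probe sets did not overlap between groups in the comparison given further on. They come from a promoter set on build GRCm38.p6, in which 8 of the 10 genes matched with 11 promoters. This set held no entry for Ets1 and Fli1, although RefSeq lists both genes. Each sequence is the 250 bases before a transcript start, read 5′ to 3′ on the strand of the gene, with capitals for RUNX letters (TGTGGT or TGTGGC, and also TGCGGT or TGCGGC) and for the ETS core GGAA on either strand (TTCC is GGAA on the other strand). Adjacent matches run together in capitals.
Elf1, start 1, chr14:79480944-79481193, plus strand: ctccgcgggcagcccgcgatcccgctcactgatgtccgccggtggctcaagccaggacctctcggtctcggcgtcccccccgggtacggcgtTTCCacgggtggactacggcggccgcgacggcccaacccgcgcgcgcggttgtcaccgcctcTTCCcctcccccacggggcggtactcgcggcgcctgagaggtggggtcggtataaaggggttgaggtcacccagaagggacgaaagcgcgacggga
Elf1, start 2, chr14:79515424-79515673, plus strand: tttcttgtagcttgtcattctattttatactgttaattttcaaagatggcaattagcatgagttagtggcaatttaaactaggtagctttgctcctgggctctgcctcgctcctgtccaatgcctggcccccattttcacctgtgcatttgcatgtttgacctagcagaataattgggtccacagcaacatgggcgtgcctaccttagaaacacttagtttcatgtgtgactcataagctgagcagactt
Gabpb1, start 1, chr2:126675353-126675602, minus strand: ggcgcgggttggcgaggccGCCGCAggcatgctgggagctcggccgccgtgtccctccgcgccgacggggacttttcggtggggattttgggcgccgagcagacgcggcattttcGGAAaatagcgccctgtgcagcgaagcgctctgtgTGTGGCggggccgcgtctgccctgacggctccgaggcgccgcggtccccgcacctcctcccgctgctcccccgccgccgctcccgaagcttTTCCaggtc
Gabpb1, start 2, chr2:126675593-126675842, minus strand: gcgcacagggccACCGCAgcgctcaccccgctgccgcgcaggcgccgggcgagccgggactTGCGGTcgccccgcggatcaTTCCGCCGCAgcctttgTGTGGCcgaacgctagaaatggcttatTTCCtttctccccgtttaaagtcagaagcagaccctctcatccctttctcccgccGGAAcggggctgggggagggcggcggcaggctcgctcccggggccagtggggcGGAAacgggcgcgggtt
Gabpa, chr16:84834874-84835123, plus strand: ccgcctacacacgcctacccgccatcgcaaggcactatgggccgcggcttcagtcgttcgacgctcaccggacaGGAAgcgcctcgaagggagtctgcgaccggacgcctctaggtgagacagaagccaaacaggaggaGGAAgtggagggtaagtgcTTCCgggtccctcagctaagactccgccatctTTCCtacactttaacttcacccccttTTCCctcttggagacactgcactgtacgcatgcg

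Of the 11 promoters, 2 held RUNX letters in this window (18.2%), both of Gabpb1, against 38% of the 32851 promoters in the table. The Gabpb1 windows, which overlap at their ends, held 2 and 4 matches. The first start had TGCGGC on the minus strand beginning 231 bases before it and TGTGGC 100 bases before it, and the second start had TGCGGT on either strand, TGCGGC and TGTGGC between 238 and 152 bases before it. GGAA was found in 10 of the 11 promoters and in 93.4% of all promoters, so its presence does not set the family apart. The exception was the second Elf1 start, while Gabpa had 5 matches. These are matches of letters and not binding sites. The study found most Runx3-bound regions far from transcript starts, which these windows do not cover. It called a gene Runx3-regulated from ChIP-seq peaks with a RUNX motif together with changed expression. The share in 11 promoters is therefore not read as a lack of Runx3 sites.

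All 6 arrays had a similar share of probe sets at log2 5 or more, 37.9% to 39.4%. This level stood for the background in the tests, since the sources used here do not state the study's own level. On its brighter probe set, 1440275_at, Runx3 was lower in Runx3-/-, with log2 signals of 7.76, 8.51 and 8.68 against 10.11, 11.56 and 10.73 in WT (5.59-fold, limma adjusted p = 0.0960 over all probe sets). The Runx3-/- signals of this set were still above log2 5. The dimmer Runx3 set, 1421467_at, had 4.57, 3.77 and 4.65 in Runx3-/- and 4.63, 4.59 and 5.88 in WT. Its groups overlapped, and the change of -0.70 did not meet the thresholds given below. NK cell markers were bright in both groups, with a mean log2 signal over 12 genes of 12.95 to 13.24 in Runx3-/- and 12.86 to 13.33 in WT. Of the 12, 1 gene met the thresholds, Eomes, which was lower. In sorted cells measured in bulk, fewer cells of a type and less RNA per cell cannot be told apart.

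Among the ETS family, only the dimmer of the 2 Elf1 probe sets, which was higher in Runx3-/-, met the thresholds taken over from the study (at least 1.5-fold with an unadjusted p under 0.05). Of the 27 probe sets, 23 reached log2 5 on at least 1 array and were tested, and 21 did so on all 6 arrays. The 4 others, 2 of Ets2, 1 of Elf4 and 1 of Etv3, stayed below log2 5 on every array. The count of 1 in 23 stands beside 13.6% of all 19120 tested probe sets at these thresholds (6.85% higher and 6.78% lower). After Benjamini-Hochberg (BH) adjustment over all probe sets, 0 of the 23 passed 5%, 1 had an unadjusted p under 0.05, and the smallest limma adjusted p was 0.213. Over the whole array 16 probe sets, 0.0837%, passed.

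The changes of the tested ETS probe sets ran from -0.75 to 1.02 on the log2 scale, with a median of 0.20 against -0.06 for all tested probe sets. Over the brightest set of each gene the median was 0.08, with 6 genes higher and 4 lower. Of the 23, 16 had a higher mean in Runx3-/- and 7 a lower one, whereas 44.4% of all tested probe sets had a higher mean. With each array centred on its median, or with quantile normalization, 18 were higher. The groups did not overlap in 3 ETS probe sets, 2 higher (Elf1 and Ets1) and 1 lower (Gabpa), against 21.7% of all probe sets (7.99% higher and 13.7% lower). The median size of the change was 0.28 for the ETS probe sets and 0.31 for all. Probe sets of a gene differ in affinity, so levels are not compared between probe sets or genes.

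**Figure D1:**
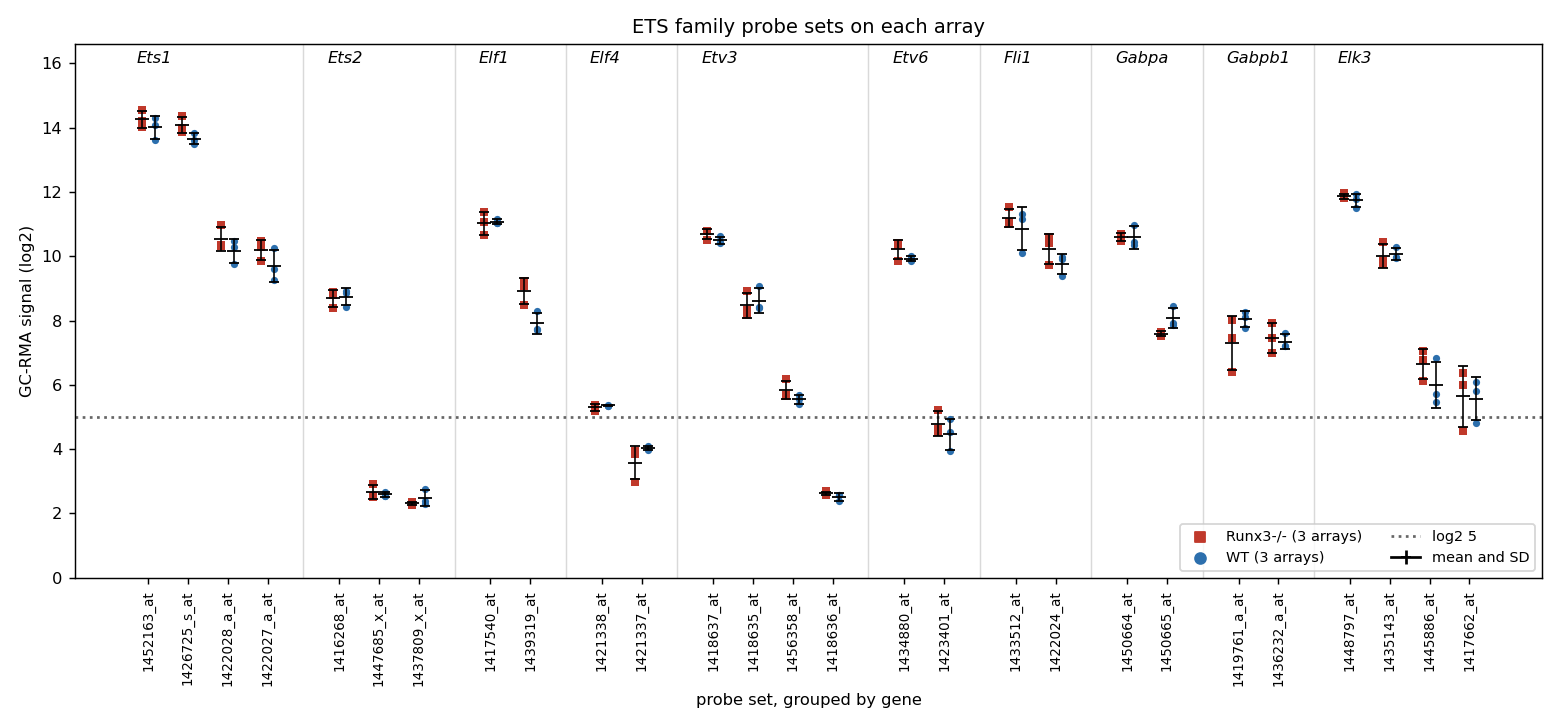
GC-RMA signal (vertical axis, log2) of the 27 ETS family probe sets (horizontal axis, grouped by gene) on each array, with squares for Runx3-/-, circles for WT, black bars for mean and SD of 3 arrays, and a dotted line at log2 5. The Runx3-/- and WT points separate for Elf1 1439319_at, Gabpa 1450665_at and Ets1 1426725_s_at among the tested sets.

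**Figure D2:**
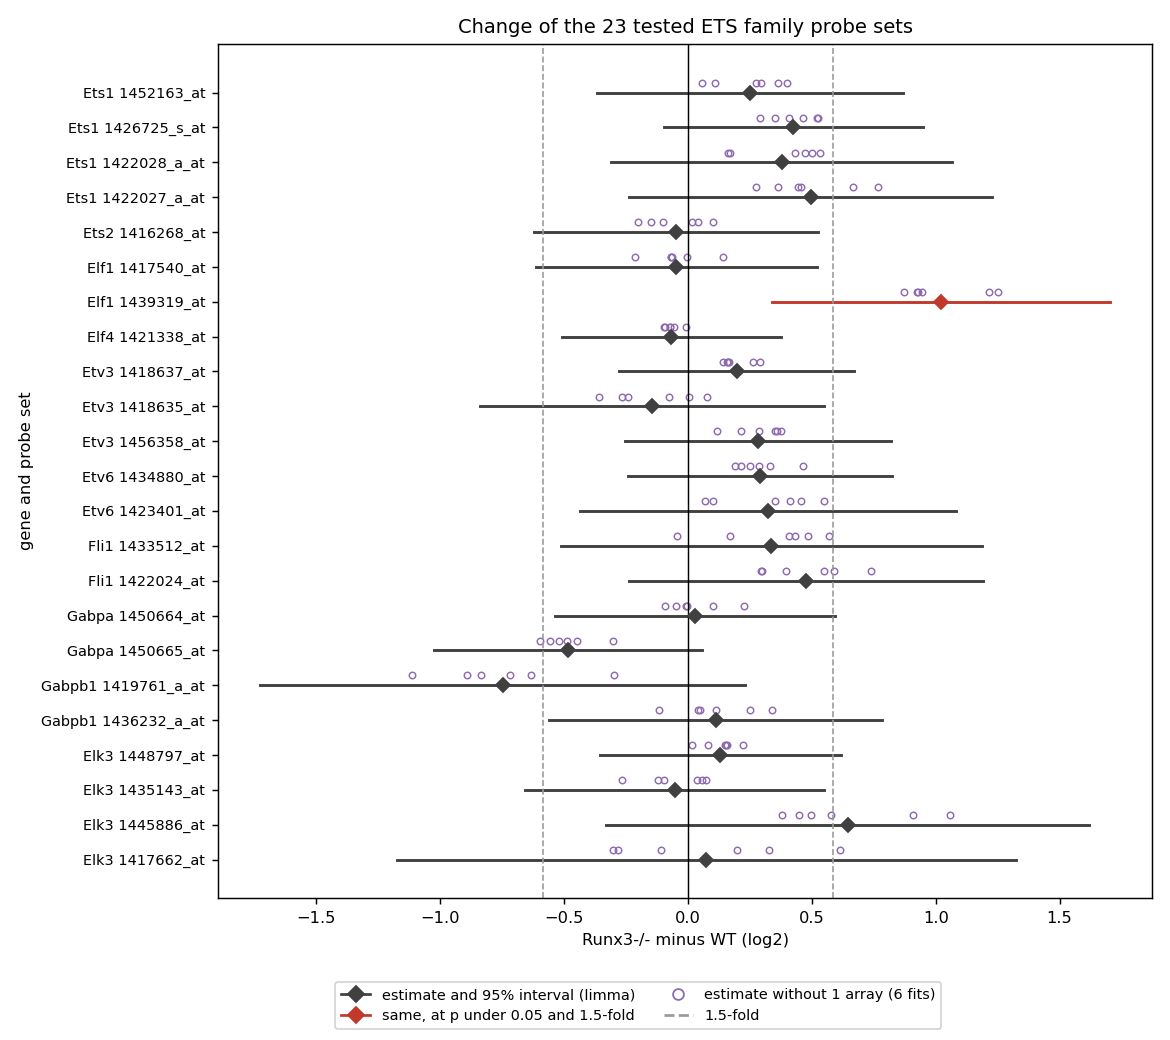
Runx3-/- minus WT difference (horizontal axis, log2) of the 23 tested probe sets (vertical axis), with diamonds for the estimate, lines for limma's 95% interval and open circles for the estimates with 1 array left out. Only the interval of Elf1 1439319_at, 0.34 to 1.70, lies off 0.

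Elf1, an ELF subfamily activator of lymphocyte genes, had 1 probe set at the thresholds and 1 that was not. Its probe set 1439319_at has a listed source record that is not a RefSeq mRNA. The set had log2 signals of 8.47, 9.09 and 9.23 in Runx3-/- and 8.29, 7.72 and 7.71 in WT. Every Runx3-/- array lay above every WT array, though Runx3-/- replicate 1 and WT replicate 1 were close. The means were 8.93 ± 0.41 and 7.91 ± 0.33 (SD, n = 3), a 2.03-fold difference (log2 1.02, SE 0.29, 95% interval 0.34 to 1.70, limma adjusted p = 0.213). The brighter Elf1 probe set, 1417540_at, designed from a RefSeq mRNA, had 10.65, 11.36 and 11.07 in Runx3-/- and 11.16, 11.03 and 11.03 in WT. Its groups overlapped, and the change of -0.05 had a 95% interval of -0.61 to 0.52. With quantile normalization, median centring or array weights, and without Runx3-/- replicate 1, the small change of the brighter set took the other sign.

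The difference between the Elf1 sets was tested on the same arrays. On each array, the dimmer set minus the brighter set gave -2.18, -2.27 and -1.83 in Runx3-/- and -2.86, -3.30 and -3.32 in WT. All 3 Runx3-/- arrays lay above all 3 WT arrays. The difference between the sets in the change was 1.07 on the log2 scale (95% interval 0.50 to 1.63, limma adjusted p = 0.312 over all pairs of probe sets). The mean of both Elf1 sets changed by 0.49 (SE 0.25, limma adjusted p = 0.360), which did not meet the thresholds.

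The genes whose signals went most closely with Elf1 1439319_at over the 6 arrays, among 16519 probe sets of other named genes, were Dram2 (Pearson r = 0.997), Timp2 (r = 0.988) and Cx3cr1 (r = 0.982). Dram2 encodes a lysosomal membrane protein of autophagy, Timp2 an inhibitor of metalloproteases and Cx3cr1 the fractalkine receptor. With 6 arrays of 2 groups, 39 probe sets had an r of 0.95 or more, and all the arrays share the genotype contrast, so the ranking describes these arrays only. Marker means of basophils and mast cells and of B cells moved with the same contrast. Basophil and mast cell markers had a mean log2 signal over 10 genes of 9.72 to 10.88 in Runx3-/- and 8.26 to 8.69 in WT, and 8 of the 10 were at the thresholds, all higher. B cell markers ran from 6.39 to 7.07 and from 5.14 to 6.15, with 3 of 6 tested genes higher at the thresholds. The other tested B cell genes also had a higher mean in Runx3-/-. Cd79a was below log2 5 on every WT array. Macrophage and monocyte markers ran from 5.17 to 9.44 and from 6.64 to 6.89, and Runx3-/- replicate 3 lay below every WT array. Of their 8 genes, 1 was at the thresholds, Adgre1 (F4/80), which was higher (8.85, 8.33 and 7.05 against 6.20, 6.53 and 5.91, 3.63-fold). On the brightest sets the changes of the 8 genes ran from -0.70 (Lyz2) to 1.86 (Adgre1), with a median of 0.52. The means of all these marker lists were highest in Runx3-/- replicate 1 (basophil and mast cell 10.88, B cell 7.07, macrophage and monocyte 9.44). On that array Elf1 1439319_at was lowest of the 3 Runx3-/- arrays. Without that array the Elf1 change was 1.25. Of the tested marker genes of other lineages, Itgax, listed for dendritic cells, was lower (change -2.00). In the same list Batf3 and Zbtb46 had a higher mean (0.36 and 0.44) and Flt3 a lower one (-0.35), none at the thresholds. Whether the Itgax signal came from dendritic cells was not tested. Of neutrophil, T cell, platelet and erythroid markers, 0 met the thresholds, beside 13.6% of all tested probe sets. The part of other cell types in the Elf1 signal was not tested.

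For Elf4, the perforin activator, the probe set signals lay near or below the background level, so they tell little about the level of its transcript. The Elf4 set 1421338_at ran from 5.18 to 5.36 in Runx3-/- and from 5.35 to 5.39 in WT, a change of -0.07 (95% interval -0.51 to 0.37). The other Elf4 set stayed between 2.98 and 4.11 on all arrays. Prf1, the perforin gene, was 13.44, 13.89 and 13.75 in Runx3-/- and 14.47, 13.83 and 13.98 in WT, with overlapping groups and a change of -0.40 (95% interval -0.99 to 0.20).

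Of the GABP genes, no probe set met the thresholds. For Gabpb1, 1419761_a_at had 6.40, 7.47 and 8.03 in Runx3-/- and 7.76, 8.11 and 8.27 in WT. The Runx3-/- arrays were spread widely, and replicate 3 lay within the WT range. The change was -0.75 (95% interval -1.73 to 0.23, limma adjusted p = 0.433), and it was -1.11 without Runx3-/- replicate 3 (at the thresholds) and -0.30 without Runx3-/- replicate 1. Probe set 1436232_a_at had 7.004, 7.45 and 7.91 in Runx3-/- and 7.22, 7.20 and 7.62 in WT, with overlapping groups. Its change was 0.11 (95% interval -0.56 to 0.78), and -0.12 without Runx3-/- replicate 3. Affymetrix marks both sets as reading more than 1 transcript of the gene.

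Within arrays, 1436232_a_at minus 1419761_a_at was 0.61, -0.01 and -0.11 in Runx3-/- and -0.54, -0.90 and -0.65 in WT. All 3 Runx3-/- arrays lay above all 3 WT arrays, although neither Gabpb1 set met the thresholds alone. The difference was 0.86 (95% interval 0.24 to 1.48, limma adjusted p = 0.463).

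For Gabpa, the subunit that binds DNA, 1450665_at had 7.51, 7.60 and 7.66 in Runx3-/- and 8.44, 7.93 and 7.85 in WT. All Runx3-/- arrays lay below all WT arrays, but the change of -0.49 was under 1.5-fold and did not pass (1.40-fold lower, 95% interval -1.03 to 0.06, limma adjusted p = 0.373). The brighter set, 1450664_at, had 10.47, 10.69 and 10.68 in Runx3-/- and 10.98, 10.34 and 10.43 in WT, with a change of 0.03 (95% interval -0.54 to 0.59) that took the other sign in 4 of the 6 fits with 1 array left out. Both sets were designed from a RefSeq mRNA. On each array the dimmer set minus the brighter one was -2.95, -3.09 and -3.02 in Runx3-/- and -2.54, -2.41 and -2.58 in WT. The arrays of each group lay close together, and the groups did not overlap. The difference of -0.51 (95% interval -0.98 to -0.05, limma adjusted p = 0.545) was below 1.5-fold.

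**Figure D3:**
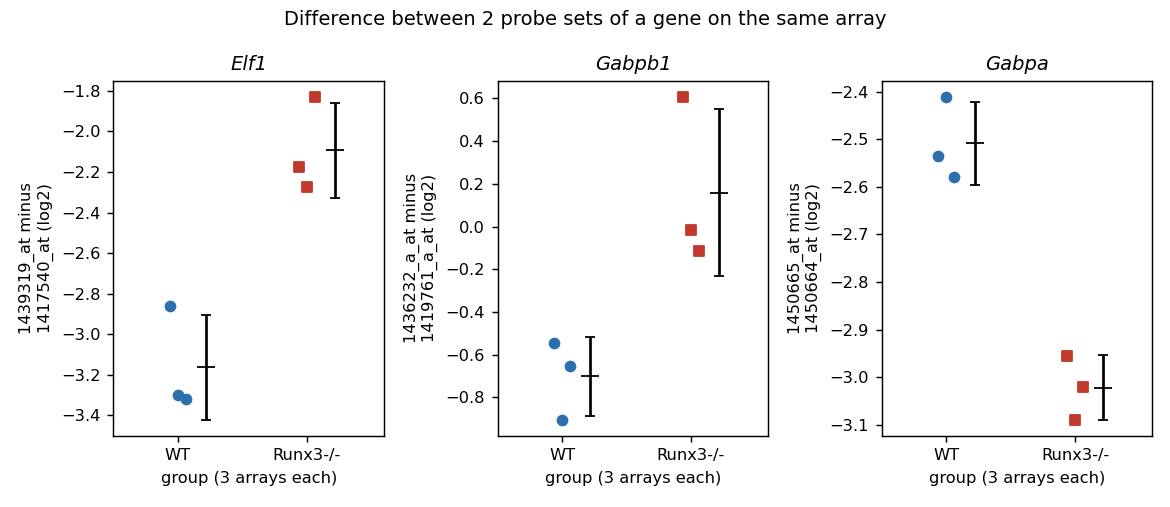
Log2 signal of the dimmer probe set minus that of the brighter one on the same array (vertical axes, log2, each panel with its own range) for Elf1, Gabpb1 and Gabpa in WT (circles) and Runx3-/- (squares), with black bars for mean and SD of 3 arrays. In each panel the 3 Runx3-/- arrays lie apart from the 3 WT arrays, by 1.07, 0.86 and -0.51 between the means.

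Known targets of GABP in the respiratory chain and mitochondrial transcription had 0 of 8 genes at the thresholds, beside 13.6% of all tested probe sets. With 8 genes, a count of 0 does not show an absence of change. The median change of these targets was -0.07 on the brightest probe sets, with -0.06 over all tested probe sets. Tfam, the mitochondrial transcription factor, changed by 0.09 and 0.08 on its 2 sets, with overlapping groups. Gabpb2, an alternative partner of Gabpa, had a change of 0.20 on its brightest set, whereas its dim set 1443942_at was at the thresholds (6.79, 7.01 and 6.30 in Runx3-/-, 6.05, 4.42 and 5.76 in WT, at least 2.14-fold higher with values under log2 5 raised to 5, limma adjusted p = 0.268).

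For Ets1, all 4 sets were at log2 9 or more on every array and had a higher mean in Runx3-/-, by 0.25, 0.43, 0.38 and 0.50 on the log2 scale, but 0 of the 4 met the thresholds. Probe set 1426725_s_at had 13.88, 14.35 and 14.00 in Runx3-/- and 13.84, 13.50 and 13.61 in WT. The groups did not overlap there, with a gap smaller than the spread within either group (1.34-fold, 95% interval -0.10 to 0.95 on the log2 scale, limma adjusted p = 0.411). The dimmest set, 1422027_a_at, had the largest of the 4 changes, 0.50 (95% interval -0.24 to 1.23, limma adjusted p = 0.480). It met the thresholds with array weights (0.65) and without WT replicate 1 (0.77). The 4 sets read the same RNA on the same arrays and are not 4 independent measurements, and the mean of the 4 changed by 0.39 (SE 0.24, limma adjusted p = 0.438).

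Fli1, which lies next to Ets1 on chromosome 9, went the same way on both of its sets without passing. Probe set 1422024_at had 10.60, 10.40 and 9.71 in Runx3-/- and 9.90, 9.39 and 9.99 in WT, a change of 0.48 (95% interval -0.24 to 1.19, limma adjusted p = 0.486), and 0.74 without Runx3-/- replicate 3 (at the thresholds). Probe set 1433512_at changed by 0.34 (95% interval -0.51 to 1.19), and by -0.04 without WT replicate 2, whose signal of 10.09 was well below the other 2 WT arrays (11.15 and 11.32). Ets2, the close relative of Ets1, was measured by 1 set above background, with 8.89, 8.79 and 8.39 in Runx3-/- and 8.44, 8.91 and 8.87 in WT. Its change of -0.05 (95% interval -0.62 to 0.52) took the other sign with quantile normalization, median centring and 3 of the 6 arrays left out in turn. The 2 other Ets2 sets were below log2 3 on every array.

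Among the repressors, Etv6 (also called TEL) had a change of 0.29 on 1434880_at (95% interval -0.24 to 0.82), with 10.41, 9.86 and 10.36 in Runx3-/- and 9.91, 9.85 and 10.003 in WT. Runx3-/- replicates 1 and 3 lay above all WT arrays and replicate 2 within their range. The other Etv6 set reached log2 5 on 1 array. Etv3 had 3 tested sets, with changes of 0.20, -0.14 and 0.28, none at the thresholds (95% intervals -0.28 to 0.67, -0.84 to 0.55 and -0.25 to 0.82). In Elk3, the 2 bright sets changed by 0.13 and -0.05, while the dim set 1445886_at had 6.12, 6.79 and 7.04 in Runx3-/- and 6.83, 5.71 and 5.48 in WT. WT replicate 1 lay among the Runx3-/- arrays, and the change of 0.64 (1.56-fold, limma adjusted p = 0.490) did not pass, but it was 1.06 without WT replicate 1 and 0.95 with array weights, at the thresholds both times. The fourth Elk3 set was below log2 5 on 1 array of each group and changed by 0.07 (95% interval -1.18 to 1.33).

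Each tested set other than the brightest of its gene was set against that brightest set, which gave 6970 pairs of 4247 genes, 13 of them in the ETS family. Of the 13, 2 (Elf1 and Gabpb1) met an unadjusted p under 0.05 with at least 1.5-fold, beside 8.06% of all pairs, and 0 passed BH 5% by limma, as did 0% of all pairs. An unadjusted p under 0.05 was found for 3 of the 13 and for 597 of all. The groups did not overlap in 3 of the 13, the pairs of Elf1, Gabpb1 and Gabpa, beside 13.2% of all pairs. The 2 sets changed in opposite directions in 5 of the 13, beside 28.4% of all. The median size of the difference was 0.18 in the ETS pairs and 0.23 in all pairs.

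**Figure D4:**
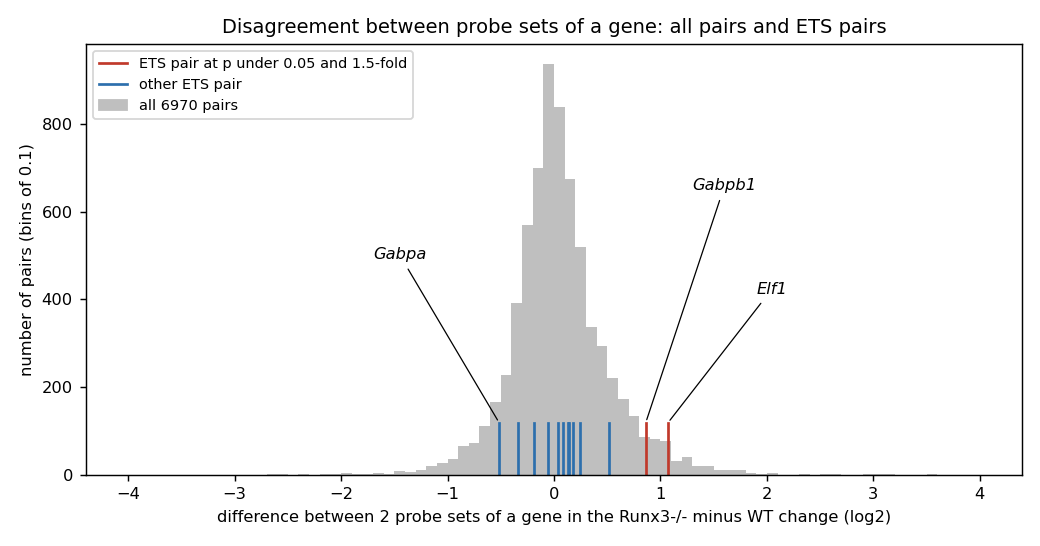
Number of probe set pairs (vertical axis) by the difference between 2 probe sets of a gene in the Runx3-/- minus WT change (horizontal axis, log2, bins of 0.1; 1 pair lies outside the axis), in grey for all 6970 pairs, with lines for the 13 ETS pairs. The Elf1 and Gabpb1 lines, at 1.07 and 0.86, lie in the right flank of the distribution and the other ETS pairs nearer its centre.

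Of 17 further ETS genes, 15 had a probe set of their own here and 7 reached log2 5, with 11 tested sets. By limma, 0 of the 11 met the thresholds, beside 13.6% of all tested probe sets, and 0 had an unadjusted p under 0.05. Spi1, the myeloid and B cell factor PU.1, had 9.61, 7.74 and 7.85 in Runx3-/- and 7.40, 6.29 and 7.66 in WT. The groups did not overlap, and the change was 1.28 (95% interval -0.09 to 2.65, adjusted p = 0.354). It was 0.67 without Runx3-/- replicate 1, the array with the highest macrophage, basophil and B cell marker means, and 0.87 without WT replicate 2. It met the thresholds in 6 alternatives, among them quantile normalization (1.29) and median centring (1.33). The part of other cell types in the Spi1 signal was not tested. Spib, a relative of Spi1 in B cells, changed by 0.77 with overlapping groups (95% interval -1.26 to 2.80). Elf2, the ELF relative of Elf1, had changes of 0.60 on its brightest set (95% interval -0.58 to 1.78) and -0.45 and -0.47 on the others, none at the thresholds. Of these, 1418275_a_at was at the thresholds without Runx3-/- replicate 1 (1.19), where that array (8.60) lay apart from the other 2 (10.73 and 10.01), and 1428045_a_at without WT replicate 3 (-0.71). Elk4 and Etv5 changed by 0.04 and -0.02 on their brightest sets.

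Of the RUNX genes, Runx1 was higher at the thresholds on 4 of its 5 tested sets, from 1.77-fold to 2.58-fold, and the groups did not overlap on these 4. Their limma adjusted p ran from 0.156 to 0.300, so 0 passed BH 5%. The sets read RNA of the same gene on the same arrays and are not independent measurements. Cbfb, the shared partner of RUNX factors, did not meet the thresholds (change 0.02). Among 13 tested partners and regulators of ETS factors, 0 met the thresholds on their brightest sets. Of 12 tested lymphocyte targets of ETS factors, 0 did so on their brightest sets, and 1 dimmer set, Bcl2 1437122_at, was lower (1.58-fold, limma adjusted p = 0.242). Of the other 4 Bcl2 sets, 2 had a lower mean in Runx3-/- without overlap of the groups (-0.41 and -0.57). The remaining 2 had a higher mean with overlapping groups (0.39 and 0.10). Il2rb, a receptor chain for IL-2 and IL-15, changed by 0.00 and 0.03 on its 2 sets. Genes driven by Srf with Elk-type factors had 0 of 6 at the thresholds. The counts for partners and regulators, lymphocyte targets and Srf genes stand beside 13.6% of all tested probe sets. With so few genes, a count of 0 does not show an absence of change. The median changes of these lists on the brightest sets were -0.15, -0.03 and -0.07.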

How the data were processed

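Per the file and the study's methods, the authors ran GC-RMA in Partek and deposited log2 signals of 45101 probe sets on 6 Affymetrix mouse arrays. Names came from the platform annotation, where 34945 had 1 symbol, 932 several and 9160 none, with 64 controls set aside. The symbols of all 27 ETS sets matched RefSeq gene identifiers (GRCm38.p6). Whether a set was designed from a RefSeq mRNA was read from the prefix of its listed source record. The origin of sets with other prefixes is not given. No genome build is stated for the array. The number of arrays limits the precision.

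Probe sets with log2 5 or more on at least 1 array (19120) were fitted with limma 3.58.1 in R 4.3.3 (lmFit, eBayes, all 6 arrays, no covariate), with BH adjustment over all of them. A second fit used, per array, each set minus the brightest set of its gene. Intervals are limma's at 95%. Fits were tested on simulated data. Replicates are individual mice per the series design. Same-numbered WT and Runx3-/- arrays did not deviate together (r = 0.00, -0.16 and 0.13), so the numbers were not used as pairs. The members, lists and tests were chosen with earlier results of these data known. Text names all 27 member sets by value, range or count, Runx3, called or lineage-defining members of the other ETS list, up to 3 called genes of each other list, and the 3 genes most like a called set. The Bcl2 and Gabpb2 dim sets, Tfam, Il2rb, Prf1, Elf2, Elk4, Etv5 and Cbfb were named after their values were seen. List genes with no single symbol on the array were not analysed here. Alternatives covered filter, level, floor, scaling, moderation, array weights, choice of feature, replicate block and leaving out each array.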

Additional observations from a re-analysis of the deposited data

How the results depend on the processing

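The call of Elf1 1439319_at held in all 18 alternatives that keep this probe set, with changes of 0.87 to 1.25 and limma adjusted p from 0.0870 to 0.507. It is out of sight with 1 probe set a gene or with the mean of a gene's sets, where the count of ETS features at the thresholds was 0 and 0 in place of 1. That count was 3 with array weights, 2 with the replicate block and 1 to 3 over the fits with 1 array left out. The differences between the sets of Elf1 (0.94 to 1.22) and Gabpb1 (0.64 to 0.997) kept their calls in all 15 alternatives, and that of Gabpa ran from -0.58 to -0.46. No ETS set or pair passed BH 5% in any alternative.

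The replicate block rests on numbers that did not pair the arrays. With it Gabpb1 1419761_a_at was at the thresholds (-0.75, adjusted p = 0.349), and 2 further ETS sets (Spi1 and Spic) were called. Further ETS sets at the thresholds numbered 1 with log2 5 required on all 6 arrays, 1 with quantile normalization, 1 with median centring, 1 with trend and robust moderation, and 0 to 2 with 1 array left out (2, both Spic, without Runx3-/- replicate 3). Over the whole array, the 2606 sets at the thresholds were 1552 without moderation, 1313 with 1 set a gene and 1330 with gene means. The 16 past BH 5% were 6 with no filter, 5 with log2 5 on all arrays, 8 with the floor, 31 with trend and robust moderation, 0 without moderation, 139 with array weights, 58 with 1 set a gene, 57 with gene means and 2 with the block, and 3 to 183 with 1 array left out (183 without WT replicate 1). Pairs at the thresholds, 562, were 1096 with no filter, 302 without moderation and 361 to 695 with 1 array left out, and pairs past BH 5%, 0, were 3 with trend and robust moderation and 2 without moderation.

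Of 612 recomputed member values, 39 took the other sign, in 14 of 36 results, none of them called. With quantile normalization these were Ets2 1416268_at (0.0288), Elf1 1417540_at (0.0297), Elk3 1417662_at (-0.0325) and 1435143_at (0.0391), and the pairs Etv6 1423401_at (-0.20) and Etv3 1456358_at (-0.12). With median centring they were Ets2 1416268_at (0.00218) and Elf1 1417540_at (0.00434), with array weights Elf1 1417540_at (0.0436) and the pair of Elk3 1417662_at (0.17), and with the floor the pairs of Elk3 1417662_at (0.0303) and Etv6 1423401_at (-0.21). With 1 array left out, changes ran from -0.20 to 0.10 for Ets2 1416268_at, -0.22 to 0.14 for Elf1 1417540_at, -0.30 to 0.61 for Elk3 1417662_at, -0.27 to 0.0712 for Elk3 1435143_at, -0.36 to 0.0750 for Etv3 1418635_at, -0.0447 to 0.57 for Fli1 1433512_at, -0.12 to 0.34 for Gabpb1 1436232_a_at and -0.0932 to 0.22 for Gabpa 1450664_at. Pair differences ran from -0.44 to 0.54 for Elk3 1417662_at, -0.36 to 0.30 for Etv6 1423401_at, -0.11 to 0.34 for Fli1 1422024_at, -0.0179 to 0.39 for Ets1 1422027_a_at, -0.12 to 0.38 for Ets1 1422028_a_at and -0.0490 to 0.22 for Etv3 1456358_at. The cause of these shifts was not tested.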
